A study of Mus musculus with 2 samples.

Results

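The miR-130 and miR-301 family is a set of microRNAs that share the same seed, the stretch of bases 2 to 8 by which a microRNA recognises messenger RNAs. The genes Mir130a, Mir130b, Mir301 and Mir301b are its 4 members in this report, picked by name from the 2202 miRNA genes listed for mouse heart. Of the 4, 3 had at least 10 counts in both hearts, which is called detected here, against 356 of all listed genes (16.2%). The members were chosen with their counts and their ratios between the hearts already known, so both are given as descriptions without a test.

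Hearts came from male B6CASTF1/J mice, F1 hybrids of C57BL/6J and the wild-derived CAST strain, at 25 days of age and without any treatment named in the labels. RNA below 30 nucleotides was sequenced from 2 hearts, 1 library each, which form 1 group, so the study names no contrast. The sample descriptions attach the unit months to the same age, and both animals carry 1 donor identifier although they are numbered separately; if the libraries are not from separate animals, the spread between them is technical. Heart tissue holds muscle, vessel, connective tissue and blood cells together, so fewer cells of a type and less RNA per cell cannot be told apart.

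A microRNA is cut from a hairpin transcript that yields a 5p and a 3p arm, and the arm loaded into the Argonaute complex represses messenger RNAs that match its seed. The family is known from blood vessels: its members repress Pparg in vascular cells in pulmonary hypertension, and human miR-130a represses the anti-angiogenic homeobox gene MEOX2 in endothelial cells. In the mouse heart miR-130a is known to repress Zfpm2, a cofactor of GATA transcription factors. Human miR-130b and miR-301a are studied mostly in tumours.

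The 3p arms carry the family seed, and the following mature sequences from RefSeq (build GRCm38.p6) are shown with bases 2 to 8 in capitals because this stretch defines the family; miR-301b-3p is named only.
mmu-miR-130a-3p: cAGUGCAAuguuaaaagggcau
mmu-miR-130b-3p: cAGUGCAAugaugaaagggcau
mmu-miR-301a-3p: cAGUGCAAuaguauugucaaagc
Counting from 1 at the 5′ end, miR-130b-3p differs from miR-130a-3p by U11A and A13G only, and 20 of 22 bases are the same. Against miR-130a-3p, miR-301a-3p holds 12 of 22 bases and the first difference is G10A, so the 5′ part with the seed is common and the 3′ part is not.

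The 5p arms divide the same genes differently, and their seeds, again in capitals, are shown because the gene counts pool both arms.
mmu-miR-130a-5p: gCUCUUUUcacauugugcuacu
mmu-miR-130b-5p: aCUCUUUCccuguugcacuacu
mmu-miR-301a-5p: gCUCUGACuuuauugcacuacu
mmu-miR-301b-5p: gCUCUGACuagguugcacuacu
Mir301 and Mir301b share the 5p seed CUCUGAC, which no other mature sequence among the 1738 in the RefSeq table holds. The 5p seed CUCUUUU of Mir130a was found in no other entry, and CUCUUUC of Mir130b in 1 other gene, Mir7014.

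The hairpins show how far reads of the genes can be told apart, with the longest run common to all 4, of 11 bases, in capitals.
Mir130a: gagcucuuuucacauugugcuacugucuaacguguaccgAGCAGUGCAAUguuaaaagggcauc
Mir130b: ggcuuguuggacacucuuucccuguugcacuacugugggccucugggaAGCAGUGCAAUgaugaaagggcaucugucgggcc
Mir301: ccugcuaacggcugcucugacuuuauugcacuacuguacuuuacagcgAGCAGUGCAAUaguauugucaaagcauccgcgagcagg
Mir301b: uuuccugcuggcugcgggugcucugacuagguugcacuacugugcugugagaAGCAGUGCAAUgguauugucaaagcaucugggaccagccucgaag
The longest run in any pair was 16 bases, in Mir301 and Mir301b. Of the 2202 listed miRNA genes, 1032 had a sequence in the RefSeq table, and the others could not be compared. Among those with a sequence, no other gene had 20 bases in a row in common with a member hairpin, read on both strands. At 16 bases each member had 1 partner among them: Mir6389 for Mir130a, Mir6368 for Mir130b, and Mir301 and Mir301b for each other. The files keep reads with several placements out of the gene counts, and how many of those came from the family was not tested.

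The members lie at 3 loci of mm10. Mir130a occupies 84741115 to 84741178 of chromosome 2, minus strand (64 bases), and no GENCODE M21 gene on that strand contains it. Mir301 is on chromosome 11 from 87113004 to 87113089 on the plus strand (86 bases), in an intron of Ska2, a gene for a kinetochore protein of dividing cells. Mir130b is on chromosome 16 from 17124061 to 17124142 and Mir301b from 17124400 to 17124496, both on the minus strand and 257 bases apart. Each lies in an intron of the protein-coding gene 2610318N02Rik, and whether it is the same intron was not examined. No further listed miRNA gene lies within 10000 bases of a member on its strand, and none overlaps a member on the opposite strand.

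The family's reads in these hearts came mostly from Mir130a. Levels are counts on the strand of the gene scaled to 1000000 assigned counts (CPM), and they were not divided by length, since the RefSeq mature sequences of the members are all 22 or 23 bases long; the lengths of the reads were not measured. Totals of assigned counts were 4930853 in replicate 1 and 5229819 in replicate 2, so 1 count is 0.203 CPM and 0.191 CPM. Mir130a had 22180 counts in replicate 1 and 14389 in replicate 2, or 4498 and 2751 CPM, a mean of 3625 ± 1235 CPM (SD, n = 2). This put it in place 33 of the 356 detected genes by mean, above 90.7% of them.

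**Figure D1:**
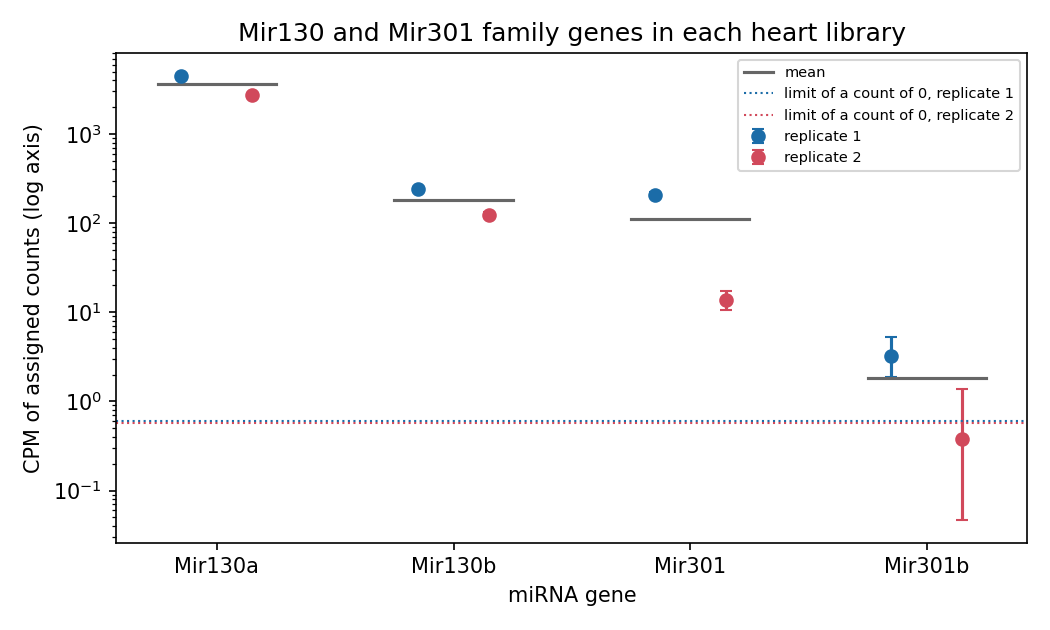
CPM of the 4 genes (log axis) in replicate 1 and replicate 2, with exact 95% intervals of the counts, the mean as a bar, and the level that a count of 0 allows as dotted lines. Mir130a has the highest level in both libraries, 4498 and 2751 CPM, and Mir301b in replicate 2, at 2 counts, is the only point under a dotted line.

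Mir130b had 1185 counts in replicate 1 and 638 in replicate 2, or 240 and 122 CPM, a mean of 181 ± 83.7 CPM, place 124 of 356. Mir301 had 1023 counts in replicate 1 and 71 in replicate 2, or 207 and 13.6 CPM, a mean of 111 ± 137 CPM, place 147. In replicate 1 Mir301 stood close to Mir130b, and in replicate 2 it was far below it. Mir301b had 16 counts in replicate 1 and 2 in replicate 2, or 3.24 and 0.382 CPM. It fell short of detection, and in replicate 2 it was under the 0.574 CPM that a count of 0 allows (3 counts). For comparison, the median of detected genes was 60.3 CPM, so Mir130a, Mir130b and Mir301 lay above it by their means, and in replicate 2 Mir301 lay below that value.

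By mean level the order was Mir130a, Mir130b, Mir301, Mir301b, and it was the same in each library. The lower library of Mir130a was above the higher library of Mir130b, and the lower library of Mir301 was above the higher library of Mir301b, so those steps exceeded the spread between the hearts. Over the hearts the levels of Mir130b and Mir301 overlapped, at 181 ± 83.7 and 111 ± 137 CPM, while within each library Mir130b was the higher. Counts of Mir130b over Mir301 had a ratio of 1.16 in replicate 1 (exact 95% interval 1.06 to 1.26) and 8.99 in replicate 2 (7.02 to 11.7), while Mir130a over Mir130b was steadier, at 18.7 (17.7 to 19.9) and 22.6 (20.8 to 24.5). All intervals cover counting error only, and adapters do not join every microRNA equally well, which also enters such ratios.

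Of the family's counts, Mir130a held 90.9% in replicate 1 (95% interval 90.5 to 91.2%, exact Clopper-Pearson) and 95.3% in replicate 2 (94.9 to 95.6%). Mir130b held 4.86% (4.59 to 5.13%) and 4.23% (3.91 to 4.56%) in the same order. Mir301 held 4.19% in replicate 1 (3.94 to 4.45%) and 0.470% in replicate 2 (0.367 to 0.593%), and Mir301b 0.0656% and 0.0132%. How often such intervals part between the libraries over all genes was not counted, so nothing is read from their overlap. Shares within a library are tied together: a lower share of 1 gene raises the others. The 4 genes together made up 0.495% of assigned counts in replicate 1 (0.489 to 0.501%) and 0.289% in replicate 2 (0.284 to 0.293%), a mean of 0.392 ± 0.146%.

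Mir130b and Mir301b lie in the same host gene, 257 bases apart on the same strand, and were listed at very different levels. Mir130b had 74.1 times the counts of Mir301b in replicate 1 (exact 95% interval 45.4 to 130.0) and 319 times in replicate 2 (87.9 to 2640). The intervals overlap, and whether the ratio differed between the hearts was not tested. Mir301 and Mir301b, the pair with the same 5p seed, stood at a count ratio of 63.9 in replicate 1 (39.2 to 112) and 35.5 in replicate 2 (9.47 to 299), and these intervals overlap too.

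The 4 genes were all higher in replicate 1 than in replicate 2, and so were 48.6% of the 356 detected genes. That share does not cover Mir301b, which was not detected, and the ratios were known when the members were chosen. The scalings tried shift all genes alike, by -0.08 to 0.05 in log2, which is too little to turn any of these directions. With 1 library per heart the difference has no replicate check, and differences between the hearts and between their library preparations cannot be told apart. Mir130a was 1.63-fold higher in replicate 1 (exact 95% interval 1.60 to 1.67), Mir130b 1.97-fold (1.79 to 2.17), Mir301 15.3-fold (12.0 to 19.7) and Mir301b 8.49-fold (1.99 to 76.1). Mir301b rests on 16 and 2 counts, so its size is poorly fixed. Summed over the family the fold was 1.71 (1.68 to 1.75), and without Mir130a, on 2224 and 711 counts, it was 3.32 (3.05 to 3.62).

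**Figure D2:**
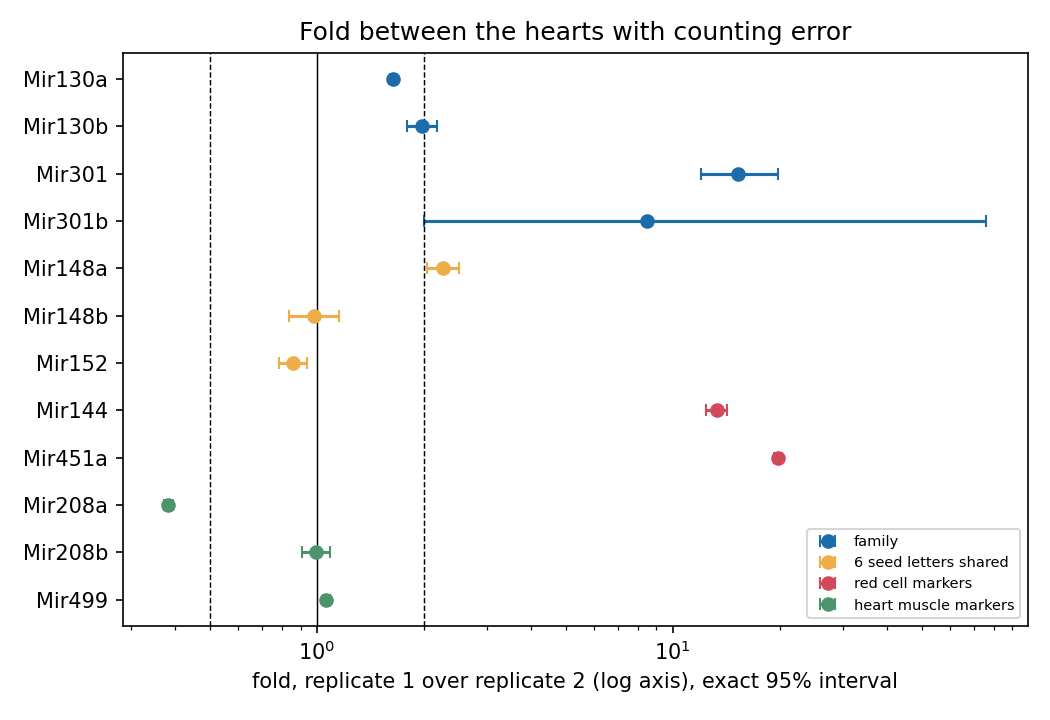
Fold of replicate 1 over replicate 2 (log axis) with exact 95% intervals for the family, the detected genes whose seeds share 6 letters with it, red cell markers and heart muscle markers; dashed lines mark 2-fold. The 4 family genes lie right of 1, Mir301 lies between Mir144 and Mir451a, and the heart muscle genes Mir208b and Mir499 lie near 1.

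Among detected genes 17.7% differed by more than 2-fold between the hearts, 10.1% higher and 7.58% lower in replicate 1, and 48.6% were higher in replicate 1 by any size. Of the 3 detected members, 1, Mir301, was past 2-fold and all 3 were higher in replicate 1. Since the ratios were known when the members were chosen, nothing is read from these counts. Mir130b lay just inside the limit, with a log2 ratio of 0.98, and just past it with TMM scaling (1.02), with all reads as the total (1.01) and with the total without the red cell markers (1.01). The median log2 ratio of the 3 detected members was 0.98, against -0.02 over the 356 detected genes, whose SD was 0.86. Mir301, at a log2 ratio of 3.92, ranked 3 by absolute size among the 233 genes that averaged 100 counts or more, whereas Mir130b ranked 44 and Mir130a 71. The replicate SD was 34.1% of the mean for Mir130a, 46.2% for Mir130b and 124% for Mir301, against a median of 21.8% over detected genes.

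**Figure D3:**
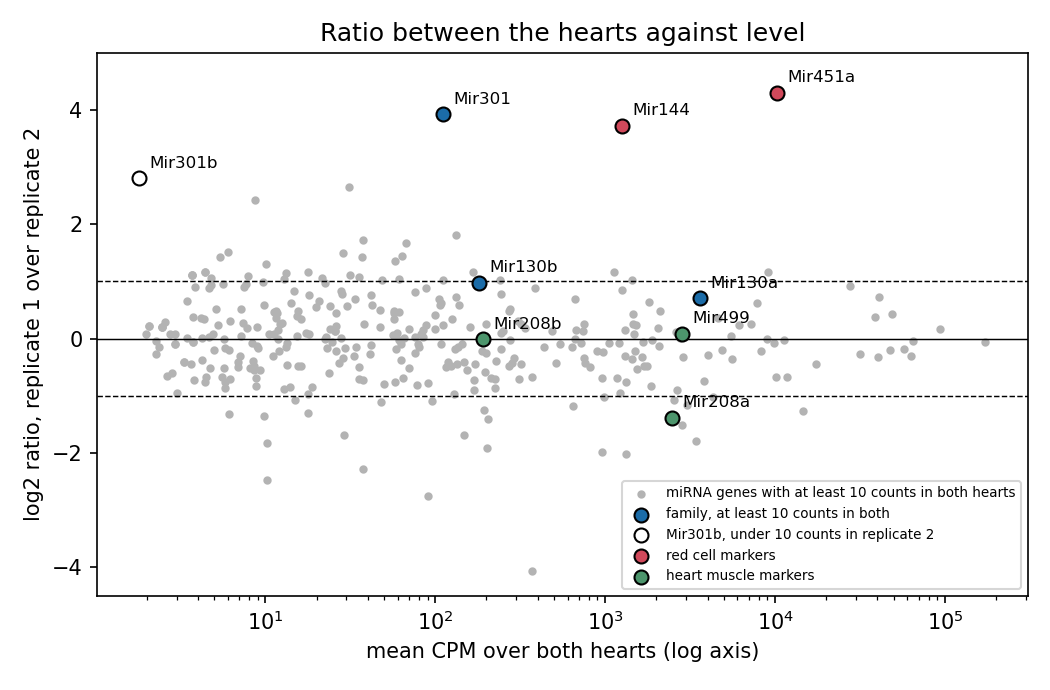
Log2 ratio of replicate 1 over replicate 2 against mean CPM (log axis) for the 356 detected miRNA genes (grey), with the family, red cell markers and heart muscle markers coloured; dashed lines mark 2-fold. Mir301, at 3.92, lies apart from genes of like level, and Mir130a and Mir130b, at 0.71 and 0.98, lie within the upper part of the grey cloud.

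Markers of other cells were set beside this difference. The red cell list, Mir451a and Mir144, moved the same way as Mir301: both of 2 were past 2-fold, with a summed level of 21812 CPM in replicate 1 and 1161 CPM in replicate 2, Mir451a 19.8-fold higher in replicate 1 (19.2 to 20.3) and Mir144 13.3-fold (12.4 to 14.2). Their part in the ratio of Mir301 was not tested. With Mir451a and Mir144 left out of the library totals, which shifts every gene by 0.03 in log2, the log2 ratio of Mir301 was 3.95. That step cannot show which cells the Mir301 reads came from. In the epithelial list 2 of the 4 detected members of 5 were past 2-fold higher in replicate 1, led by Mir200b at 6.34-fold, but the summed level was 325 CPM in replicate 1 and 354 CPM in replicate 2. The labelled tissue carried its markers in both libraries: the heart muscle genes Mir499, Mir208a and Mir208b had a summed level of 4486 CPM in replicate 1, against 6512 CPM in replicate 2, with Mir208a past 2-fold lower in replicate 1. Endothelial genes, led by Mir126a, summed to 56393 and 69423 CPM in replicates 1 and 2. Smooth muscle and fibroblast genes, led by Mir143 and Mir214, summed to 31902 and 40630 CPM. Among them Mir199a-1 was at 0 in both, in counts that leave out reads with several placements. Leukocyte genes, led by Mir155 and Mir150, summed to 4788 and 5126 CPM. These 3 lists had 0, 1 and 0 detected members past 2-fold, the 1 being Mir214, which was lower in replicate 1.

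Other genes hold the same seed but gave no reads in these hearts. Of the 1738 mature sequences in the RefSeq table, 7 have AGUGCAA at bases 2 to 8: the 3p arms of Mir130a, Mir130b and Mir301 printed above, and 4 from genes that are not members here. These 4 are shown because they share the seed, in capitals, with miR-130a-3p and differ from it in later bases.
mmu-miR-130c: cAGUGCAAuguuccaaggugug
mmu-miR-721: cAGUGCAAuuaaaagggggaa
mmu-miR-6389: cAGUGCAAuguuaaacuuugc
mmu-miR-6341: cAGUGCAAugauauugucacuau
Mir130c, Mir721, Mir6389 and Mir6341 had 0 counts in both libraries, and the limit this sets is 0.608 CPM for replicate 1, against 0.574 CPM for replicate 2. Reads with several placements are not in these counts.

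MicroRNAs with a seed that overlaps AGUGCAA by 6 letters differed in direction. The miR-148/152 family reads CAGUGCA at bases 2 to 8 and the miR-19 family GUGCAAA, as in these 3p arms.
mmu-miR-148a-3p: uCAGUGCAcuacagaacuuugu
mmu-miR-148b-3p: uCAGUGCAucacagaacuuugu
mmu-miR-152-3p: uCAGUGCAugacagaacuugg
mmu-miR-19a-3p: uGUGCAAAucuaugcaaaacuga
Mir148a, known as a repressor of DNA methyltransferases, had 1133 counts in replicate 1 and 532 in replicate 2, and at 2.26-fold (2.04 to 2.51) was past 2-fold higher in replicate 1. Mir148b, with 300 and 324 counts, and Mir152, with 856 and 1060, had folds of 0.982 (0.837 to 1.15) and 0.857 (0.782 to 0.938). The miR-19 genes of the proliferation-linked miR-17/92 clusters were near 0, with 5 and 1 counts for Mir19a, 1 and 3 for Mir19b-1 and 0 in both for Mir19b-2. Mir19b-1 and Mir19b-2 have the same 3p arm, and reads that could come from both are in neither count. With Mir721, which has the full family seed, the list had 7 matched genes, of which 3 were detected, 1 was past 2-fold higher in replicate 1 and 0 past 2-fold lower, with a median log2 ratio of -0.03.

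MicroRNAs studied alongside the family in vessels were measured as a list. Of 12 genes linked to pulmonary vascular disease all 12 were detected, 1 (Mir20a) was past 2-fold higher in replicate 1, 3 (Mir21a, Mir27b and Mir503) were past 2-fold lower and 8 lay within 2-fold, with a median log2 ratio of -0.34. Mir27a and Mir27b, which like the miR-130 genes are known repressors of Pparg, had log2 ratios of -0.96 and -1.02. The 3 detected family members were between 0.71 and 3.92. Mir27a and Mir27b were named after their values were seen, and the ratios of the members were known before. Nothing is therefore read from this contrast. Mir322, one of the 2 most abundant genes of that list with Mir143, had a log2 ratio of 0.37. Of 11 matched angiogenic genes, led by Mir126a and Mir23a, 10 were detected, 0 were past 2-fold higher and 2 (Mir132 and Mir222) past 2-fold lower in replicate 1, with a median of -0.20. Over all detected genes 10.1% were past 2-fold higher and 7.58% past 2-fold lower in replicate 1, and 16.2% of listed genes were detected. None of the lists in this report was tested against those shares.

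Genes next to the members in level had log2 ratios of either sign. By mean CPM Mir130a stood between Mir15b, at 3812 ± 1358 CPM, and Mir21a, at 3441 ± 2688 CPM, with log2 ratios of -0.74 and -1.79. Mir130b stood between Mir152, at 188 ± 20.6 CPM, and Mir3102, at 170.2 ± 36.8 CPM, with log2 ratios of -0.22 and -0.44. Mir301 stood between Mir409, at 111 ± 53.6 CPM, and Mir1981, at 108 ± 4.96 CPM, with log2 ratios of 1.02 and -0.09. Likeness was also measured as the distance of log2 CPM over both libraries, 2 points a gene. The nearest genes were Mir322 (0.59) and Mir499 (0.62) for Mir130a, Mir148a (0.27) and Mir337 (0.56) for Mir130b, and Mir708 (1.60) and Mir101a (1.76) for Mir301. The gene nearest to Mir301 thus lay farther away than those nearest to Mir130a and Mir130b. This distance uses the same values as the ratio, which was known when the members were chosen, so it is no separate result. At the extremes of the ratio among the same 233 genes stood Mir451a and Mir301 on the side of replicate 1, and Mir31 (log2 ratio -4.07) and Mir26a-1 (-2.76) on the side of replicate 2.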

How the data were processed

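The deposited values are raw whole-number counts per miRNA gene; the authors' text beside the files names mm10 and GENCODE M21, and for the aligner and the counter the sources used here give no name. Each file holds unstranded, gene-strand and opposite-strand counts; the gene-strand column was used. Of 13210462 and 14363882 reads in replicates 1 and 2, 37.3% and 36.4% were assigned to genes. Unmapped reads (15.0% and 20.2%), reads at several loci (41.6% and 37.4%) and reads outside miRNA genes (6.03% and 6.00%) stayed out of totals. Identifiers were matched to GENCODE M21, and sequences came from RefSeq (GRCm38.p6), where the 4 members had 4 hairpins and 7 mature sequences. Reads of CAST alleles were matched to a C57BL/6J reference.

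Counts were scaled to CPM. Log2 values use a pseudocount of 0.5 counts, detection needs 10 counts in both libraries, and 2-fold was the limit for a difference. Exact 95% intervals (Clopper-Pearson, for ratios on the conditional binomial distribution) came from scipy 1.17.1. There is 1 library per heart and 1 group, so no test was run. TMM factors came from edgeR 4.0.16 and size factors from DESeq2 1.42.0 for alternative scalings. The intervals were also run on simulated counts that vary by counting error alone, so that run does not cover differences between hearts or library preparations. Members, lists and the naming rule were chosen with earlier results of these data known. Named genes are the members, genes with the same or a near seed, neighbours by position, level and distance, leading list members, all heart muscle and red cell markers, and the extremes; other list members past 2-fold, Mir27a and genes with a shared run were named after their values were seen. Mir454 and Mir92a-1 were listed but matched no symbol. Signal tracks were not analysed here.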

Additional observations from a re-analysis of the deposited data

Results flagged for a closer look

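Mir130a had reads in the opposite-strand column, which no comparison uses: 8 counts in replicate 1 and 6 in replicate 2, above the 3 that a count of 0 allows. They amount to 0.0361% of its gene-strand counts in replicate 1 and 0.0417% in replicate 2. Mir130b, Mir301 and Mir301b had 0 there in both libraries. Over the 2138 miRNA genes without an overlapping gene on the other strand, the column held 125 counts in replicate 1 and 130 in replicate 2, which is 0.00254% and 0.00249% of all assigned counts, from 27 and 32 genes. All assigned counts also include genes with such an overlap, so these shares are another measure than those of Mir130a.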

How the results depend on the processing

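All 4 log2 ratios kept their direction under the scalings, totals, strand columns and pseudocounts tried. For the scalings and totals this was fixed beforehand, since they shift all genes alike by only -0.08 to 0.05 in log2. The ratio of Mir130a, 0.71, moved beyond its narrow counting interval to 0.76 with TMM scaling, 0.62 with DESeq2 size factors and 0.75 with all reads as the total. With all reads as the total, which makes levels smaller by construction, Mir130a was at 1340 CPM, Mir130b at 67.1 CPM and the family share at 0.145%; with unstranded counts, whose total lacks the ambiguous reads, Mir130a was at 4990 CPM and the family share at 0.539%. Genes past 2-fold numbered 63 of 356, against 170 of 594 with a minimum of 1 count and 36 of 222 with a minimum of 100. They numbered 66 of 356 (18.5%) with TMM scaling and 58 of 356 (16.3%) with size factors. For the other totals they were not counted. Members past 2-fold were Mir301 alone with size factors, Mir301 and Mir130b with TMM, and Mir130b also passed with all reads as the total (1.01) and without the red cell markers in the total (1.01); they were Mir301 and Mir301b of 4 at a minimum of 1 count, and 0 of 2 at 100, where Mir301 drops out with 71 counts. Leaving out a replicate gave, as lowest and highest, 2751 and 4498 CPM for Mir130a, 122 and 240 CPM for Mir130b, 13.6 and 207 CPM for Mir301, 0.382 and 3.24 CPM for Mir301b, and 0.289 and 0.495% for the family. No paired analysis was possible because there is 1 group. Depth limits Mir301b most.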
